A study of Mus musculus with 6 samples.

Results

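The colony-stimulating factor system was measured as 6 genes, 4 receptor chains (Csf1r, Csf2ra, Csf2rb and Csf3r) and 2 ligands (Csf1 and Il34), which were read from the deposited table by Ensembl identifier. All 6 were among the 26789 genes of the table, and all 6 passed the filter of a mean of at least 10 normalized counts that 18007 genes passed. Expression was compared between 3 control libraries and 3 libraries of E3–E12 diet mice, the offspring of dams that ate a low sodium diet from E3 to E12, where controls came from dams on the control diet. The cells were microglia of the rostral nucleus of the solitary tract (NST) of P15 mice, isolated by magnetic selection for CD11b in the study's methods but by laser tissue microdissection in the deposited labels. Each library held the pooled tissue of littermates, so that a replicate stands for 1 litter. In the study's methods, dams on the low sodium diet drank distilled water while they ate it, their offspring were later kept on standard chow, and male and female mice were used. A strain is named for the control mice of another experiment (C57Bl/6) but not for these libraries. The labels name no other agent or allele for either group, and the comparison asks how the maternal diet alters microglia of a region where taste nerves end.

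CSF1R is a receptor tyrosine kinase on the surface of microglia and other macrophages, and it is bound by CSF1 (also called M-CSF) and by the unrelated cytokine IL-34. Signaling through CSF1R is needed for microglia to survive and divide, and drugs that block the kinase remove microglia from the brain. CSF2RA and CSF2RB form the receptor for GM-CSF, in which the alpha chain gives ligand specificity and the beta chain, shared with the receptors for IL-3 and IL-5, carries the signal to JAK2 and STAT5. CSF3R is the receptor for G-CSF and is best known for its part in making neutrophils. In the brain IL-34 is made mainly by neurons, whereas CSF1 is made by glia, microglia among them.

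The mouse genome carries a second beta chain gene, Csf2rb2, next to Csf2rb on chromosome 15, and reads of the 2 genes can be hard to tell apart. In GRCm38 Csf2rb lies on the plus strand at chr15:78325752-78353847 and Csf2rb2 on the minus strand at chr15:78282507-78305721. Their longest coding sequences, of 2688 and 2634 bases in the GENCODE annotation, were identical at 2503 of 2628 aligned bases (95.2%). The longest identical run within an exon covered 242 coding bases, in exon 14 of each gene, at chr15:78348577-78348818 in Csf2rb and chr15:78284630-78284871 in Csf2rb2. The run is shown once because a read from it carries no base that tells the genes apart.
Csf2rb and Csf2rb2, shared coding run: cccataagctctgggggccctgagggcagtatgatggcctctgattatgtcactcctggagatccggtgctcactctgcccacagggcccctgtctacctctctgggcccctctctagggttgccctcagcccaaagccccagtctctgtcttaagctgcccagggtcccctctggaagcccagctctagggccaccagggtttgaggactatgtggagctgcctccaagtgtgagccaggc
The most different 50-base window, in exon 4 of both genes, held 12 differing bases and is shown for contrast, with the differing bases in capitals.
Csf2rb, chr15:78338898-78338947, plus strand: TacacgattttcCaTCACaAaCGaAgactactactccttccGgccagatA
Csf2rb2, chr15:78294384-78294433, minus strand: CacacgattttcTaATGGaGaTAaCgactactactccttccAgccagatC
Of all 50-base windows in the annotated transcripts, 12.3% of those of Csf2rb and 18.9% of those of Csf2rb2 also occurred in another gene, and 7.15% and 10.6% at 75 bases. The values of both genes are therefore uncertain, and their sum is given beside them.

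For the other members, 14.3% of the 50-base windows of Csf1r were shared with Hmgxb3, whose annotated span overlaps the exons of Csf1r. The shares were 10.7% for Csf3r and 1.30% for Il34, and no window of Csf1 or Csf2ra was shared. Exons of Il34 also overlap the annotated spans of Gm15894 and Gm15895, and without a stated strand setting in the counting, reads of overlapping genes cannot be told apart.

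Promoters from RefSeq on GRCm38.p6, covering 250 bases before to 50 after a start site, were matched by symbol for Csf1, Csf2ra, Csf3r and Csf2rb2, but not for Csf1r, Il34 and Csf2rb. The promoters of 2 receptors and of the ligand Csf1 are shown because the receptor genes and the myeloid transcription factor genes described further on were measured in the same libraries. PU.1, encoded by Spi1, binds purine-rich sites whose core was searched as GAGGAA on both strands, and 28.3% of all 32851 promoters of this length held it. Csf2ra held the core at 2 adjoining places, ending just before the start site, and Csf3r at 1 place. Csf1 held no core, but held the consensus sequence for NF-kB on the opposite strand, which 0.155% of the promoters held. Capitals mark the PU.1 core in the receptors and the NF-kB match in Csf1.
Csf2ra, chr19:61228369-61228668, minus strand: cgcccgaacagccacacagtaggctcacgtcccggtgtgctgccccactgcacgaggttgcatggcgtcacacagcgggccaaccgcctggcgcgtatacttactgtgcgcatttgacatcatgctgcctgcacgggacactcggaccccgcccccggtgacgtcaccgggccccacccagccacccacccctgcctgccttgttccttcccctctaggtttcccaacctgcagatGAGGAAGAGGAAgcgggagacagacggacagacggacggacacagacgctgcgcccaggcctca
Csf3r, chr4:126024409-126024708, plus strand: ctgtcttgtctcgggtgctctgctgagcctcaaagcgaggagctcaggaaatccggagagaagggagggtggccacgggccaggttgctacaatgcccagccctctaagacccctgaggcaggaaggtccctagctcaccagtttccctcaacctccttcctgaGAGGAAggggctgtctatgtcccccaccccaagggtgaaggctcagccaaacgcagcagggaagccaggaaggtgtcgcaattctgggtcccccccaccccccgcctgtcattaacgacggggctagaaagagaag
Csf1, chr3:107760420-107760719, minus strand: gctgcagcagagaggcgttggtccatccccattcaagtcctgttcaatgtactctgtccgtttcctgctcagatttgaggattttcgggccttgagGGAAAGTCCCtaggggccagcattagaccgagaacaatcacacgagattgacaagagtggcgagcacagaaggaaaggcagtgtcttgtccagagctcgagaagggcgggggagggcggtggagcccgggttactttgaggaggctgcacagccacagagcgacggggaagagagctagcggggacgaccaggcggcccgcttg
A longer PU.1 sequence that contains the core (GAGGAAGT, in 3.2% of all promoters), an AP-1 sequence (TGACTCA, 5.2%) and a C/EBP sequence (TTGCGCAA, 0.183%) were searched on both strands too. They had no match in these 3 promoters, which says only that these letters are not in these windows. The promoter of Csf2rb2, not shown, held the PU.1 core at 2 places, 1 of them within the longer sequence.

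Library totals ran from 9407141 to 17204618 normalized counts, and the number of reads behind a value is not known. Control replicate 2 stood apart, with 39.7% of the genes of the table listed at 0 against 12.9 to 26.6% in the other libraries, so results are also given without it. All 11 microglial markers were above 0 in every library, with summed levels of 56628 to 253193 normalized counts in controls and 51483 to 184961 in E3–E12 diet mice, lowest in replicate 1 of each group. On the log2 scale 0 of the 11 averaged higher in E3–E12 diet mice, where 54.4% of all genes tested did. Their mean log2 level differed by -0.22, as E3–E12 diet minus control (exact permutation p = 0.8). Other cells left signal too. Oligodendrocyte markers summed to 4993 to 42918 normalized counts over the 6 libraries, endothelial markers to 5213 to 9327 and border macrophage markers to 5645 to 21060. In bulk samples, fewer cells of a type and less RNA per cell cannot be told apart.

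Csf1r was the most abundant member by far, and the diet groups overlapped. Values of single libraries are given in the order of replicates 1, 2 and 3 of each group. It had 48984, 280071 and 106427 normalized counts in the control litters against 53504, 108590 and 140889 in the E3–E12 diet litters. Control replicate 2 was highest and replicate 1 of each group was lowest, so the E3–E12 diet libraries lay within the range of the controls. The log2 fold change, on the log2(normalized count + 1) scale and as E3–E12 diet minus control, was -0.28 with a standard error of 0.83 and a 95% confidence interval of -2.26 to 1.70 (limma with Benjamini-Hochberg adjustment, adjusted p = 0.999). An exact two-sided permutation test over the libraries gave p = 1. Without control replicate 2 the log2 fold change was 0.37, and without E3–E12 diet replicate 1 it was 0.12, so the sign of this difference rested on single libraries.

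In GRCm38 (GENCODE) Csf1r lies on the plus strand at chr18:61100598-61132149, Csf1 on the minus strand at chr3:107741048-107760469, Il34 on the minus strand at chr8:110741829-110805924, Csf2ra on the minus strand at chr19:61223957-61228429 and Csf3r on the plus strand at chr4:126024550-126044440.

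By mean normalized count Csf1r ranked 4th of the 18007 genes tested, and it was between 2nd and 9th in each library. The other receptors and Csf1 were among the more abundant genes as well, with 1.53% of the genes tested above Csf3r, 2.60% above Csf2ra, 3.12% above Csf1 and 5.10% above Csf2rb. Il34 was at the other end, with 77.7% of the genes above it.

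**Figure D1:**
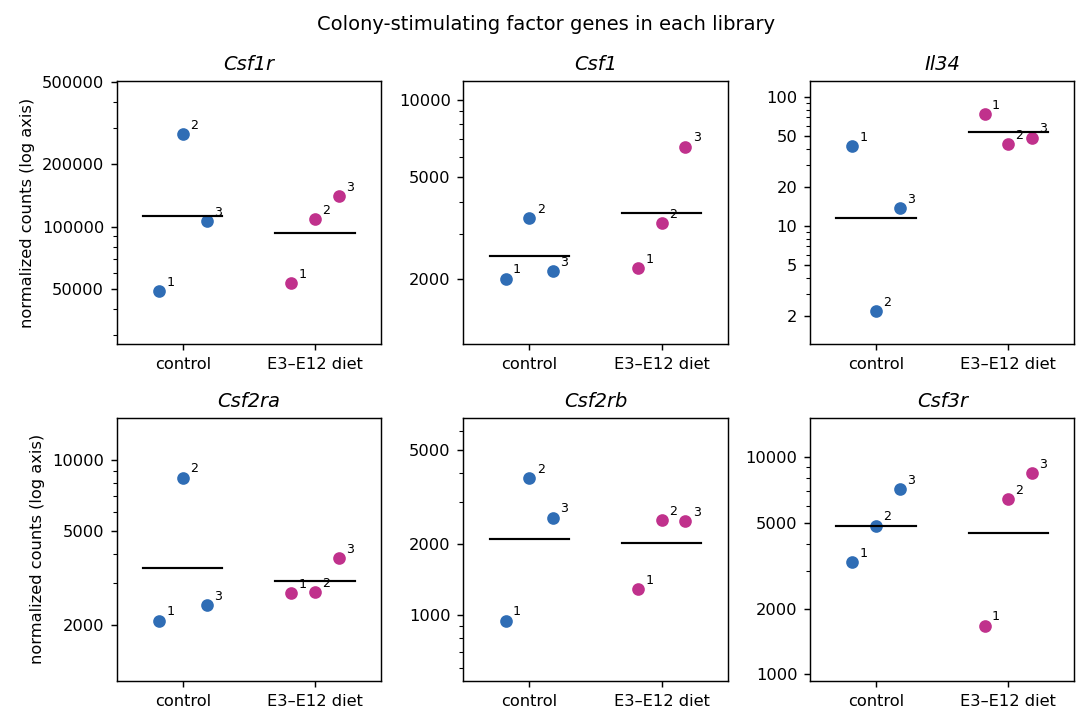
Normalized counts (log axis, 1 panel per gene) in the 3 control and 3 E3–E12 diet libraries, where points are libraries numbered by replicate and bars are means taken on the log2(normalized count + 1) scale. Only in Il34 did the groups separate, with 43.2 normalized counts in the lowest E3–E12 diet library and 41.9 in the highest control.

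Csf1, the ligand whose name the receptor bears, was also measured well above the filter. It had 2009, 3447 and 2150 normalized counts in the control litters against 2209, 3297 and 6559 in the E3–E12 diet litters. E3–E12 diet replicate 3 was the highest library, and the other 5 lay between 2009 and 3447. The group means were 2535 ± 793 normalized counts in controls and 4021 ± 2264 in E3–E12 diet mice (SD, n = 3 libraries each). The log2 fold change was 0.56 with a standard error of 0.65 and a 95% confidence interval of -1.0 to 2.12 (limma, adjusted p = 0.999), within the spread between replicates, and an exact permutation test gave p = 0.4. Without E3–E12 diet replicate 3 the log2 fold change was 0.13.

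Il34, the second ligand of CSF1R, was low, and each E3–E12 diet litter exceeded all control litters. It had 41.9, 2.19 and 13.8 normalized counts in the control litters against 74.4, 43.2 and 48.6 in the E3–E12 diet litters. The groups were set apart narrowly, since the lowest E3–E12 diet library and the highest control differed by little more than 1 normalized count. The means were 19.3 ± 20.4 in controls and 55.4 ± 16.7 in E3–E12 diet mice (SD, n = 3 libraries each), and the log2 fold change was 2.12 with a standard error of 1.01 and a 95% confidence interval of -0.29 to 4.52. The difference did not pass the threshold of 0.1 (limma with Benjamini-Hochberg adjustment over all genes, adjusted p = 0.999, unadjusted p = 0.0754). The exact permutation test gave p = 0.1, which is the lowest value that 6 litters in 2 groups of 3 can reach.

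Il34 was the 1 member of 6 whose groups did not overlap, and 2.99% of all genes tested were likewise higher in every E3–E12 diet library (5.9% did not overlap in either direction). Without control replicate 2, where Il34 was nearly absent, the log2 fold change was 1.12, and without control replicate 1 it was 3.0. Astrocyte markers separated the groups by their sum, as Il34 did, but not on the log2 scale. The 6 of them summed to 1395 to 1527 normalized counts in controls and to 1941 to 4042 in E3–E12 diet mice. Control replicate 2, the library lowest in Il34, had the highest sum of the controls (1527). Its mean over the 6 markers on the log2 scale was the lowest of all libraries (4.07), and Gfap and Aldh1l1 were listed at 0 there. On that scale the groups overlapped, with 7.47 in control replicate 1 against 7.13 in E3–E12 diet replicate 3 (exact permutation p = 0.2). Each of the 6 averaged higher (log2) in E3–E12 diet mice. Neuronal markers, 10 in number, overlapped between the groups, at 1370 to 3279 normalized counts in controls and 1347 to 3711 in E3–E12 diet mice. In control replicate 2 Rbfox3, Syt1 and Stmn2 were listed at 0, as were 39.7% of all genes of the table. The 10 summed to 2308 there, above control replicate 3 (1370), while their mean log2 level was the lowest of the 6 libraries (4.66). The part of either cell type in the Il34 values was not tested.

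**Figure D2:**
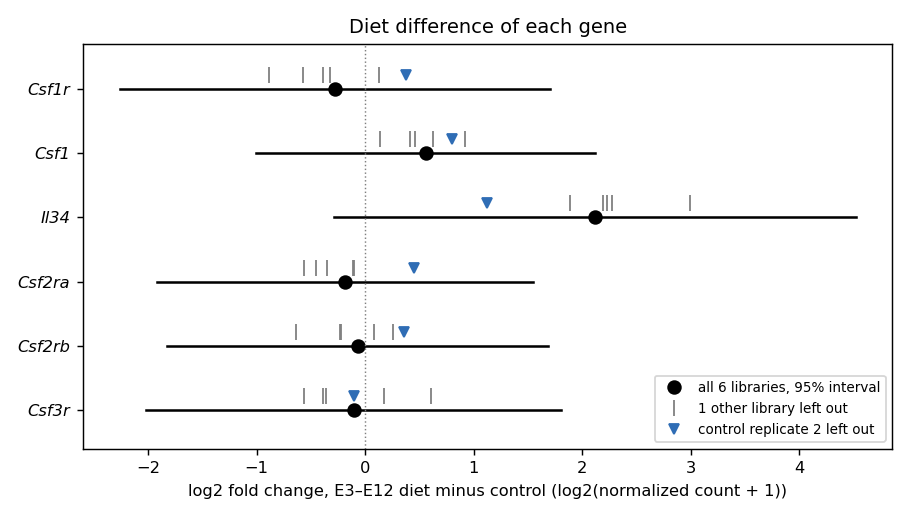
Log2 fold change of each gene (E3–E12 diet minus control, on the log2(normalized count + 1) scale) with all 6 libraries (black points, lines are 95% confidence intervals from limma), and with 1 library left out at a time (grey ticks, blue triangles without control replicate 2). Every interval includes 0, and leaving out control replicate 2 moved Il34 from 2.12 to 1.12 and Csf1r from -0.28 to 0.37.

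The alpha chain of the GM-CSF receptor, Csf2ra, overlapped between the groups. It had 2078, 8382 and 2417 normalized counts in the control litters against 2723, 2737 and 3830 in the E3–E12 diet litters, so control replicate 2 stood above the other 5 libraries, which ran from 2078 to 3830. The log2 fold change was -0.19 (standard error 0.72, 95% confidence interval -1.92 to 1.54, limma adjusted p = 0.999), and it was 0.45 without control replicate 2.
The shared beta chain, Csf2rb, had 951, 3804 and 2590 normalized counts in the control litters against 1292, 2524 and 2506 in the E3–E12 diet litters, with the low values in replicate 1 of each group. Its log2 fold change was -0.066 (standard error 0.73, 95% confidence interval -1.82 to 1.69, limma adjusted p = 0.999). The sign became positive without control replicate 2 (0.36), without control replicate 3 (0.083), without E3–E12 diet replicate 1 (0.25) and after quantile normalization (0.14). Scaling to equal library totals gave 0.055, but moved the median of all genes from 0.087 to 0.20 as well.
The copy Csf2rb2, which in mice serves IL-3 signaling, had 1872, 4154 and 2844 normalized counts in the control litters against 2814, 2240 and 2246 in the E3–E12 diet litters (log2 fold change -0.21, standard error 0.58). Summed over both beta chain genes control litters had 2823, 7957 and 5434 normalized counts and E3–E12 diet litters 4106, 4764 and 4752, a log2 difference of -0.13 (exact permutation p = 0.8) that was 0.21 without control replicate 2 and -0.54 without control replicate 1. The controls spanned the E3–E12 diet libraries for the sum as for each gene of the GM-CSF receptor.

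Csf3r, the receptor for G-CSF, differed more within the E3–E12 diet group than between groups. It had 3282, 4844 and 7143 normalized counts in the control litters against 1679, 6423 and 8466 in the E3–E12 diet litters, which held both the lowest and the highest value. The log2 fold change was -0.10 (standard error 0.80, 95% confidence interval -2.02 to 1.81, limma adjusted p = 0.999), and 0.61 without E3–E12 diet replicate 1. Neutrophils are rich in this receptor, and the 11 neutrophil markers summed to 692 to 4177 normalized counts in controls and 820 to 1295 in E3–E12 diet mice. Of the 11, Ly6g and Elane were each listed at 0 in at least 1 library, and the others were above 0 in every library. CD11b, the surface protein of the magnetic selection, is carried by neutrophils and monocytes too. The 4 monocyte markers in the table summed to 111 to 198 normalized counts in controls and 189 to 226 in E3–E12 diet mice, and Plac8 and Fn1 were each at 0 in at least 1 library. The part of these cells in the Csf3r values was not tested.

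None of the 6 members passed the adjusted threshold, as for all genes (0 of 18007, 0%), and 0 had an unadjusted p under 0.05 from limma, against 1.82% of all genes tested. These counts come from limma on the deposited normalized values. The study itself used DESeq2 with the same adjusted threshold and lists genes that differed between the diets. None of the 6 members is in its lists. The mean log2 level was higher in E3–E12 diet mice for 2 members, which are the 2 ligands, and lower for 4, which are the 4 receptors, although the sign of each receptor turned in at least 1 of the fits that left out a library. The median log2 fold change of the 6 was -0.085, beside 0.087 for all genes tested, of which 54.4% were higher in E3–E12 diet mice. Over all genes the standard error had a median of 0.85 log2 units, and a change of that size was not detectable in a single gene.

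Compared per kilobase of exon, the genes fell into 3 tiers. Csf1r had between 8484 and 48506 normalized counts per kb with a median of 18619, above the whole range of every other member. Csf3r (median 1561), Csf2ra (951), Csf1 (521), Csf2rb2 (534) and Csf2rb (346) followed, in order of their means, and the ranges of neighbours in that order overlapped. Il34 was lowest, between 1.12 and 38.0 with a median of 21.7, below the whole range of the others. Within the middle tier Csf2ra exceeded Csf1 in 6 of 6 libraries and Csf2rb2 exceeded Csf2rb in 6 of 6, while Csf3r exceeded Csf2ra in only 4 and Csf1 exceeded Csf2rb2 in only 2. The first 2 of these orders depended on the division by length. As deposited, they held in the other libraries but not in E3–E12 diet replicates 2 and 3. There Csf2ra had 2737 and 3830 normalized counts against 3297 and 6559 for Csf1. Csf2rb2 had 2240 and 2246 there against 2524 and 2506 for Csf2rb. Whether the deposited normalization already allowed for length is not known.

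**Figure D3:**
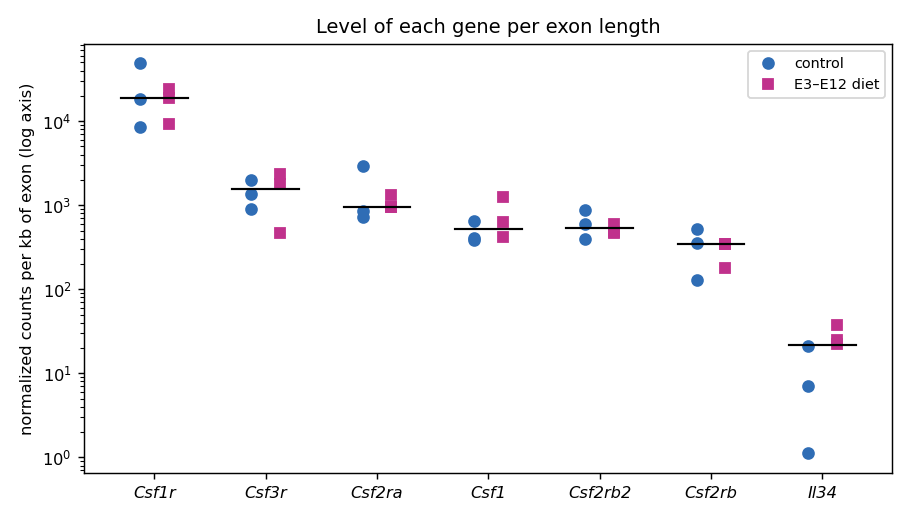
Normalized counts per kb of exon (log axis) of the 6 genes and Csf2rb2, ordered by mean, in control (blue circles) and E3–E12 diet libraries (magenta squares), with bars at the median of 6 libraries. Csf1r sits above all other genes, at 8484 or more, and Il34 below them, at 38.0 or less.

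Within a library, the balance of receptor and ligand was read from ratios of normalized counts per kb. Csf1r exceeded Csf1 by 22.3, 74.3 and 45.3 times in the controls and by 22.2, 30.1 and 19.6 times in the E3–E12 diet libraries. The ratio was lower on average in E3–E12 diet mice, by a log2 difference of -0.84, but the groups overlapped (exact permutation p = 0.2). That difference was -0.43 without control replicate 2 and -1.30 without control replicate 1. Csf1 exceeded Il34 in every library, by between 11.01 and 585 times, and the largest ratio was in control replicate 2. Csf2ra stood at 0.881 to 2.09 times the summed beta chain genes, with a log2 difference between diets of -0.039 (exact permutation p = 1), and of 0.27 without control replicate 2. Over the 7 ratios compared, chosen after the data were seen, the smallest Benjamini-Hochberg adjusted p from the exact permutation tests was 1.

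The members differed in how closely they followed the microglial markers of a library. The mean log2 level of the 11 microglial markers, among them Cx3cr1, P2ry12 and Tmem119, was 11.5, 13.8 and 13.1 for the control litters, against 11.5, 12.8 and 13.4 for the E3–E12 diet litters. Csf1r stood 4.10, 4.28 and 3.60 log2 units above that mean in control litters and 4.19, 3.90 and 3.72 above it in E3–E12 diet litters. The SD of the log2 level of Csf1r over the 6 libraries was 0.93 as deposited and 0.27 relative to the markers. For Csf2rb the SD was 0.74 as deposited and 0.32 relative to the markers. Without control replicate 2 these SDs were 0.68 and 0.25 for Csf1r and 0.67 and 0.33 for Csf2rb.

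For Il34 the spread was larger relative to the markers, with an SD of 2.46 against 1.68 as deposited, and 1.53 against 0.87 without control replicate 2. The SD of Csf3r was 0.87 as deposited and 0.62 relative to the markers, and without control replicate 2 it was 0.97 and 0.36. For Csf2ra and Csf1 the order of both SDs depended on control replicate 2. The SD of Csf2ra was 0.73 as deposited and 0.67 relative to the markers with all libraries, but 0.33 and 0.74 without that library. The SD of Csf1 was 0.65 and 0.74 with all libraries, but 0.71 and 0.66 without it.

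Relative to the markers, the difference between diets was -0.059 for Csf1r (exact permutation p = 0.9), 0.78 for Csf1 (p = 0.3 by the same exact test) and 2.34 for Il34 (p = 0.3 by the same exact test). Without control replicate 2 these differences were 0.085 for Csf1r, 0.52 for Csf1 and 0.83 for Il34, and without control replicate 1 they were -0.0083, 1.29 and 3.87. The Il34 difference also lay at 1.58 without E3–E12 diet replicate 1, and that of Csf1r at -0.25 without control replicate 3. This scaling, chosen after the data were seen, also moved the median log2 fold change of all genes from 0.087 to 0.31, and the share of genes higher in E3–E12 diet mice from 54.4% to 65.8%.

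**Figure D4:**
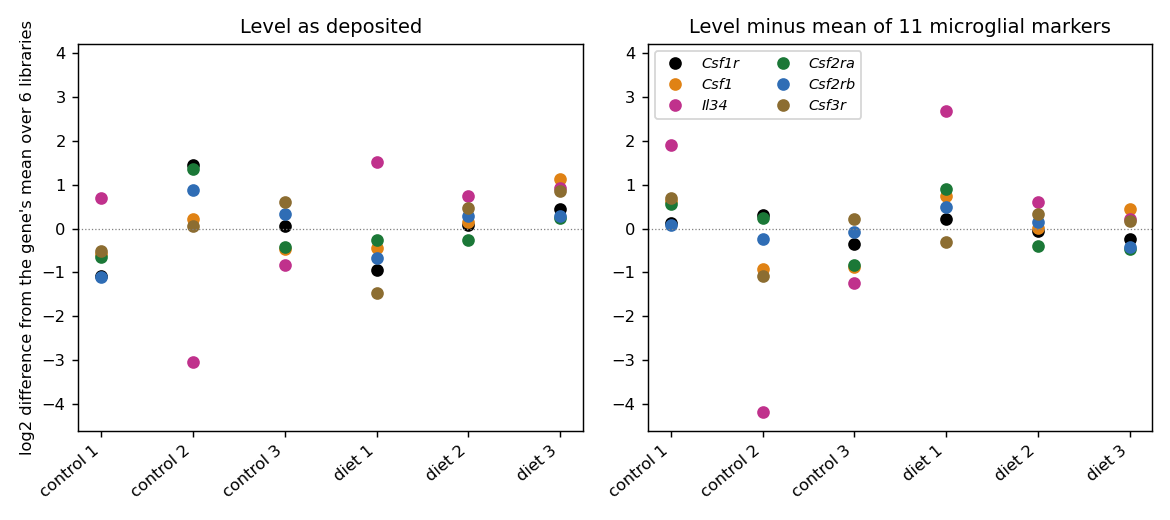
Log2 difference of each gene from its own mean over the 6 libraries, as deposited (left) and after the mean log2 level of 11 microglial markers of the library was subtracted (right). Points are single libraries, and the spread of Csf1r narrows from an SD of 0.93 to 0.27 while that of Il34 widens from 1.68 to 2.46.

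The genes whose levels were most like those of each member over the 6 libraries were listed by Pearson correlation of log2 levels among genes averaging 100 or more normalized counts. For Csf1r they were Ppp1ca (r = 0.999), Sort1 (0.998) and Sall1 (0.996), the last a transcription factor of microglia and 1 of the 11 markers. For Csf2rb they were Shisa5 (0.998), Tmem119 (0.996), a microglial membrane protein and also 1 of the markers, and Zbtb39 (0.995). For Csf2ra they were Klf7, Nfxl1 and Cope (0.998 to 0.994), and for Csf3r Dennd4a, Fam102b and Gak (0.993 to 0.991). For Csf1 they were Eif4h, Lsm14a and Bcs1l (0.987 to 0.974), and for Il34 Trdmt1, Svil and Fam57a (0.996 to 0.993). With 6 libraries, 267 of 10478 genes had r above 0.95 with Csf1r, 85 with Il34 and 17 with Csf1, so the names describe these libraries alone, and all values of a library share its RNA and its scaling.

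**Figure D5:**
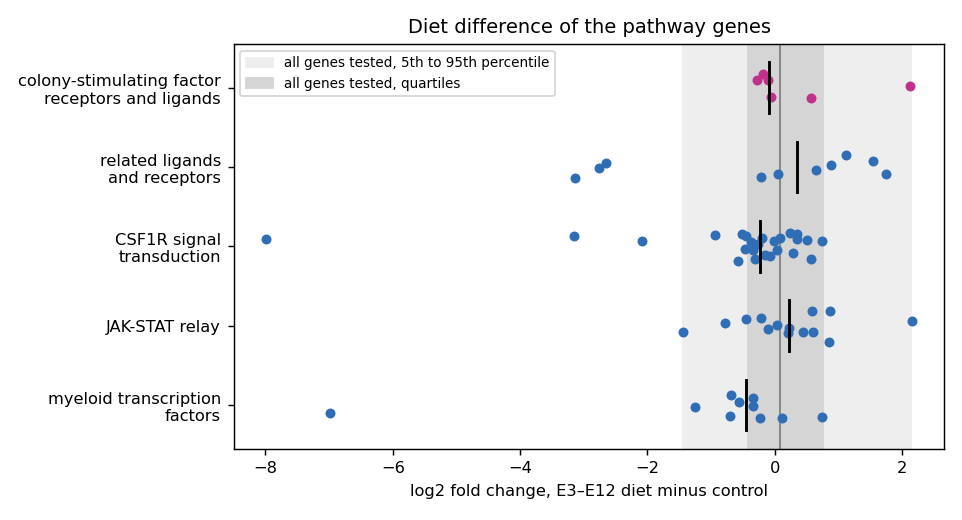
Log2 fold changes (E3–E12 diet minus control) of the 6 members and of 4 lists of pathway genes, where points are genes, black bars are list medians and grey bands cover all 18007 genes tested. The points farthest left are Tyrobp and Mef2c, which were listed at or near 0 in E3–E12 diet libraries.

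Of 15 related ligands and receptors 13 matched a row of the table and 10 were tested. Of these, 6 were higher and 4 lower on the low sodium diet and 0 passed the threshold (median log2 fold change 0.35). The study, with its own test, lists Kit and Il3ra as lower in E3–E12 diet mice. Beside this and the lists that follow, 54.4% of all genes tested were higher in E3–E12 diet mice. The ligand genes Csf2, Csf3 and Il5 were under the filter, so transcripts of GM-CSF and G-CSF themselves were scarcely measured. Ptprz1, a receptor phosphatase that also binds IL-34, had 2305, 705 and 343 normalized counts in the control litters against 3727, 1381 and 421 in the E3–E12 diet litters, highest in replicate 1 of each group. Sdc1, a proteoglycan that binds IL-34, had 6.99, 0 and 16.0 normalized counts in the control litters against 15.6, 21.1 and 12.8 in the E3–E12 diet litters, with overlap between the groups. Kit, the receptor for stem cell factor, had 262, 60.9 and 57.7 normalized counts in the control litters against 389, 0 and 2.59 in the E3–E12 diet litters. Il5ra was listed at 0 in every library other than control replicate 2, where it had 312 normalized counts. A 0 listed for any of these genes may be a failed estimate, since no counts were available.

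The 26 genes that carry the signal of CSF1R were all tested, with 9 higher and 17 lower on the low sodium diet, 0 past the threshold and a median log2 fold change of -0.23. Of all genes tested, 54.4% were higher, and whether the lower levels are particular to this list was not tested. Lyn, a Src-family kinase, had 4186, 21555 and 7946 normalized counts in the control litters against 3093, 8607 and 10264 in the E3–E12 diet litters. Inpp5d, the phosphatase SHIP1 that limits PI3K signaling, had 3964, 12912 and 7352 normalized counts in the control litters against 3439, 8750 and 10733 in the E3–E12 diet litters. Like Csf1r, both were highest in control replicate 2 and lowest in replicate 1 of the 2 groups. Tyrobp, which encodes the adaptor DAP12, was listed at 0 in all 3 E3–E12 diet libraries and had 182, 59.5 and 1494 normalized counts in the controls. Among the 26 genes it alone lay below the controls in all E3–E12 diet litters, as did 2.91% of all genes tested. It alone also had an unadjusted p under 0.05 (0.000314 from limma, with an exact permutation p = 0.1 and a limma adjusted p = 0.999), as had 1.82% of all genes tested. Microglia are known to express Tyrobp, and a 0 in a table without counts may be a failed estimate, so neither the zeros nor this p can be read as a lower level. Cbl, the ubiquitin ligase that turns CSF1R over, was listed at 0 in 2 E3–E12 diet libraries and had 40.7 normalized counts in the other, with 7.73, 89.7 and 36.5 in the controls. Dok2, a docking protein downstream of tyrosine kinases, had 26.7, 64.7 and 35.5 normalized counts in the control litters against 35.0, 0 and 22.9 in the E3–E12 diet litters. The zeros of Cbl and Dok2 may be failed estimates too. Tyrobp, Cbl and Dok2 are included in the counts and the median of this list.

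The JAK-STAT relay used by the GM-CSF and G-CSF receptors held 14 genes, of which 9 were higher and 5 lower on the low sodium diet and 0 passed the threshold (median log2 fold change 0.22). Mcl1, a survival protein of the BCL2 family, had 14522, 18664 and 6798 normalized counts in the control litters against 15229, 22067 and 33546 in the E3–E12 diet litters (log2 fold change 0.87, standard error 0.67). Stat3, a transcription factor that CSF3R activates, had 5491 ± 2307 normalized counts in controls and 5187 ± 2419 in E3–E12 diet mice. Socs2, a feedback inhibitor of cytokine signaling, had 276, 317 and 562 normalized counts in the control litters against 274, 219 and 158 in the E3–E12 diet litters, all of them below the controls. The nearest litters of the groups differed little (276 and 274), with a log2 fold change of -0.79 (standard error 0.60) and an exact permutation p = 0.1, and Socs2 was the 1 gene of the 14 without overlap, where 2.91% of all genes tested were lower in this way and 5.9% did not overlap in either direction. Tyk2, a Janus kinase, had 239 ± 64.0 normalized counts in controls and 137 ± 148 in E3–E12 diet mice.

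Transcription factors of the myeloid lineage, 10 in number, were higher for 2 and lower for 8 in E3–E12 diet mice, with 0 past the threshold and a median log2 fold change of -0.46. The share higher over all genes tested was 54.4%, and a difference of the list from it was not tested. For Spi1, which encodes PU.1, the log2 fold change was 0.12 (standard error 0.82). Mef2c, a regulator of microglial maturity, had 664, 7016 and 1446 normalized counts in the control litters against 0, 1728 and 0.887 in the E3–E12 diet litters. The groups overlapped, and of the 10 genes it alone had an unadjusted p under 0.05 (0.0445 from limma, with an exact permutation p = 0.3 and a limma adjusted p = 0.999), as had 1.82% of all genes tested. As for Tyrobp, the values at or near 0 may be failed estimates, so they are not read as levels. The counts and the median of this list include Mef2c. Jun, an immediate early gene, had 25134 ± 13012 against 15420 ± 8339 normalized counts, controls first (SD, n = 3 libraries each). Cebpa (89.2 ± 37.9 against 63.8 ± 67.1) and Ets2 (1005 ± 302 against 667 ± 126), given in the same order, also overlapped between the groups.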

How the data were processed

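RNA-seq libraries of microglia were summarized by the authors as normalized counts per gene, deposited as 1 column per library. The submitters' processing notes name FastQC, STAR, featureCounts, DESeq2 and GRCm38, without versions or roles. The deposited signal values are not whole multiples of a step in any library (at most 6.56% were within 0.02 of a whole number), so reads could not be recovered, no count test was run and depth is unknown. The table's name mentions surrogate variables, and what was adjusted is not given in the sources used here. The paper states RNA amplification and 50-bp paired reads, whereas the labels state 75-bp reads.

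Identifiers were matched to symbols for 26507 of 26789 genes. Log2(normalized count + 1) was compared between diets in limma 3.58.1 (R 4.3.3), two-sided, for genes with a mean of at least 10, with Benjamini-Hochberg adjustment over all genes tested and a threshold of 0.1. The script was tested on simulated data. Exact permutation tests covered all regroupings of the 6 libraries. Exon lengths were taken from GENCODE M21. The p-values rest on the spread between libraries of single litters that the deposited normalization left, which may differ from the full spread between litters.

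The members and gene lists were chosen with earlier results of these data known. Named genes were the members, Csf2rb2, from each list any gene past the threshold, the 3 genes with the smallest p and the 2 with the highest mean, and the 3 most alike genes per member. A gene that this rule names and a marker are not reported here. Spi1 and the markers listed at 0 were named after their values were seen. Alternatives were other pseudocounts, filters and scalings, a replicate block, an intensity trend and leaving out each library.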

Additional observations from a re-analysis of the deposited data

How the results depend on the processing

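No member and no pathway gene passed the adjusted threshold under any of the 15 alternatives tried, with adjusted p from limma between 0.866 and 1 (rounded) for the members. With a minimum mean of 50 normalized counts, 1 gene of all those tested passed (Prdm4, named after its values were seen), against 0 in the other settings. That filter also left Il34 untested. Il34 and Csf1 were higher in E3–E12 diet mice under every alternative that tested them. With 1 library left out at a time, the log2 fold change ran from 1.12 to 3.0 for Il34, 0.13 to 0.92 for Csf1, -0.88 to 0.37 for Csf1r, -0.56 to 0.45 for Csf2ra, -0.64 to 0.36 for Csf2rb, -0.51 to 0.068 for Csf2rb2 and -0.56 to 0.61 for Csf3r. Signs also turned with quantile normalization for Csf2ra (0.040), Csf2rb (0.14), Csf2rb2 (0.0093) and Csf3r (0.065), and with equal library totals for Csf2rb (0.055) and Csf3r (0.015), where the median of all genes was 0.20. Relative to the microglial markers, a scaling chosen after the data were seen that moved the median of all genes from 0.087 to 0.31, they turned for Csf2ra (0.032), Csf2rb (0.15), Csf2rb2 (0.0046) and Csf3r (0.11). Equal totals and the marker scaling shift all genes of a library alike. For the other settings the cause was not tested.

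Deviations from the group mean were correlated across genes between libraries that share a replicate number, with r = 0.26, 0.035 and 0.14 for numbers 1, 2 and 3. Control replicates 1 and 3 correlated best with the E3–E12 diet library of their own number. Control replicate 2 correlated best with E3–E12 diet replicate 3 (0.087). Whether the numbers pair the litters cannot be told from these values. The main fit left pairing out, and a fit with the replicate number as a block is given beside it. With the replicate block 0 genes passed (smallest adjusted p = 0.98), 468 rather than 327 had an unadjusted p under 0.05, and the log2 fold changes of the members were the same, at 2.12 for Il34 (adjusted p = 0.98 from limma). Spread between libraries and unknown depth limit what could be seen, most of all for Il34.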
